A study of Mus musculus with 9 samples.

Results

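Genes that mark muscle satellite cells or drive the myogenic programme were followed in the muscle of mice that carry a mutant BubR1 allele. The 9 members, Pax7, Calcr, Cdh15, Sdc4, Spry1, Myf5, Myod1, Myog and Myf6, were chosen by name from a table of 24062 genes, by a rule with no threshold but with earlier results of these data known. All 9 were in that table. RNA of whole gastrocnemius, a calf muscle, was sequenced from mice of 3 months of age on a mixed 129Sve/C57BL/6 background, with 3 libraries for each of 3 genotypes. The wild type (WT) was set beside carriers of BubR1+/L1002P (hetL1002P) and of BubR1+/X753 (hetX753), whose other allele is wild type. BubR1, encoded by Bub1b, is a mitotic checkpoint protein, and the alleles come from mosaic variegated aneuploidy (MVA), a human syndrome of chromosome missegregation. The labels name no Cre driver or transgene. They also leave unsaid whether each library is its own animal, so every p-value refers to the scatter among these samples, part of which could be technical.

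Satellite cells are the stem cells of skeletal muscle and lie between a fibre's membrane and its basal lamina. Pax7 specifies them, and cell-surface proteins and signalling inhibitors hold them at rest. When fibres are damaged they divide and pass through a cascade of basic helix-loop-helix (bHLH) factors: Myf5 and Myod1 commit them to the muscle fate, Myog drives differentiation and Myf6 is kept on in mature fibres. Whole muscle holds few of these cells among many fibre nuclei, so a change in the number of cells of a type and a change in RNA per cell cannot be told apart in these libraries.

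Library totals ran from 19768149 to 33977252 counts. Bub1b itself had 11 to 21 counts in the WT libraries, against 2 to 10 for hetL1002P and 5 to 8 for hetX753. WT 3 and hetL1002P 3 stood apart from the other 7 libraries on the first principal component of log-CPM (39.1% of the variance), at -46.6 and -31.7 against -9.53 to 29.0. Selected counts and values are also given without both. All others include both unless stated, and their dependence on these libraries is not shown. Levels are given as CPM, counts scaled to a common library total after correction by the trimmed mean of M-values. The labelled tissue was checked on 12 myofibre markers, among them Acta1 and Pvalb, which summed to 201518 to 262475 CPM over the 9 libraries. A gene is called where edgeR's quasi-likelihood test over all 9 libraries gave a Benjamini-Hochberg adjusted p under 0.05 over 12989 genes.

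The upstream DNA of Spry1 is shown because Spry1 was the only member called in any of the 3 pairwise comparisons. That of Myog is shown because its hetX753 libraries also stood clear of WT, in the other direction. The hetX753 libraries of Sdc4 stood clear of WT too. Its RefSeq window held 0 bases upstream of both the RefSeq and the GENCODE start, so none are shown. Each run ends at the base before the gene's start, 5′ to 3′ on the gene's strand, from RefSeq's GRCm38.p6 sequence. Capitals mark the E-box CANNTG, the core letters that bHLH factors such as Myod1 and Myog bind; it reads the same way on either strand. Spry1 (chr3:37639697-37639946, plus strand) and Myog (chr1:134289754-134289988, plus strand) read as follows.
Spry1: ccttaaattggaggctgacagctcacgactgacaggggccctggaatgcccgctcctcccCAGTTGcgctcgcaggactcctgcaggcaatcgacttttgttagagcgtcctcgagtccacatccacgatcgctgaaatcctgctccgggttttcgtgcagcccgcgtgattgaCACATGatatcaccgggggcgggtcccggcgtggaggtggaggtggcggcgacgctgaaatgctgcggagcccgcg
Myog: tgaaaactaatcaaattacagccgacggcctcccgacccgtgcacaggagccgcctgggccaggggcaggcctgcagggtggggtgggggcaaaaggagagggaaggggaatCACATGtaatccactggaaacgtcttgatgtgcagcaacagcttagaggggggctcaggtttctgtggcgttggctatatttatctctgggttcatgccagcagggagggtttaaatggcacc
In the Spry1 window, CAGTTG began 190 bases and CACATG 76 bases before the gene's start, and in the Myog window CACATG began 123 bases before its end; the whole RefSeq window of Myog, which runs past the gene's start, holds 2. Of 32851 promoter windows of 250 bases in the same RefSeq set, 66.2% held at least 1 E-box and 31.8% held 2 or more, with a median of 1, so these matches are common letters and describe the sequence only. RefSeq windows matched 7 of the 9 members. Myod1 and Myf6 were not among them.

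Levels between genes can be compared only per length, as CPM per kilobase of exon (GENCODE M21, GRCm38). By the mean of this level over the 9 libraries, Myf6 stood highest at 57.3 (range 48.0 to 69.5) and overlapped no other member. Myod1 (10.8), Spry1 (8.63), Sdc4 (8.35) and Cdh15 (7.47) followed, and their ranges over libraries overlapped one another. Myog averaged 3.21 (2.24 to 3.96) and lay below all of those 4 ranges. Myf5 (0.410) and Pax7 (0.276) overlapped each other, and Calcr was lowest at 0.0642 (0.0364 to 0.0832), below the lowest Pax7 library at 0.107. The bHLH factors of muscle differed in depth as well: Myod1 rested on 282 to 880 and Myf6 on 1420 to 2375 a library. Few counts were behind Pax7 (13 to 64), Myf5 (12 to 33) and Calcr (3 to 11).

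**Figure D1:**
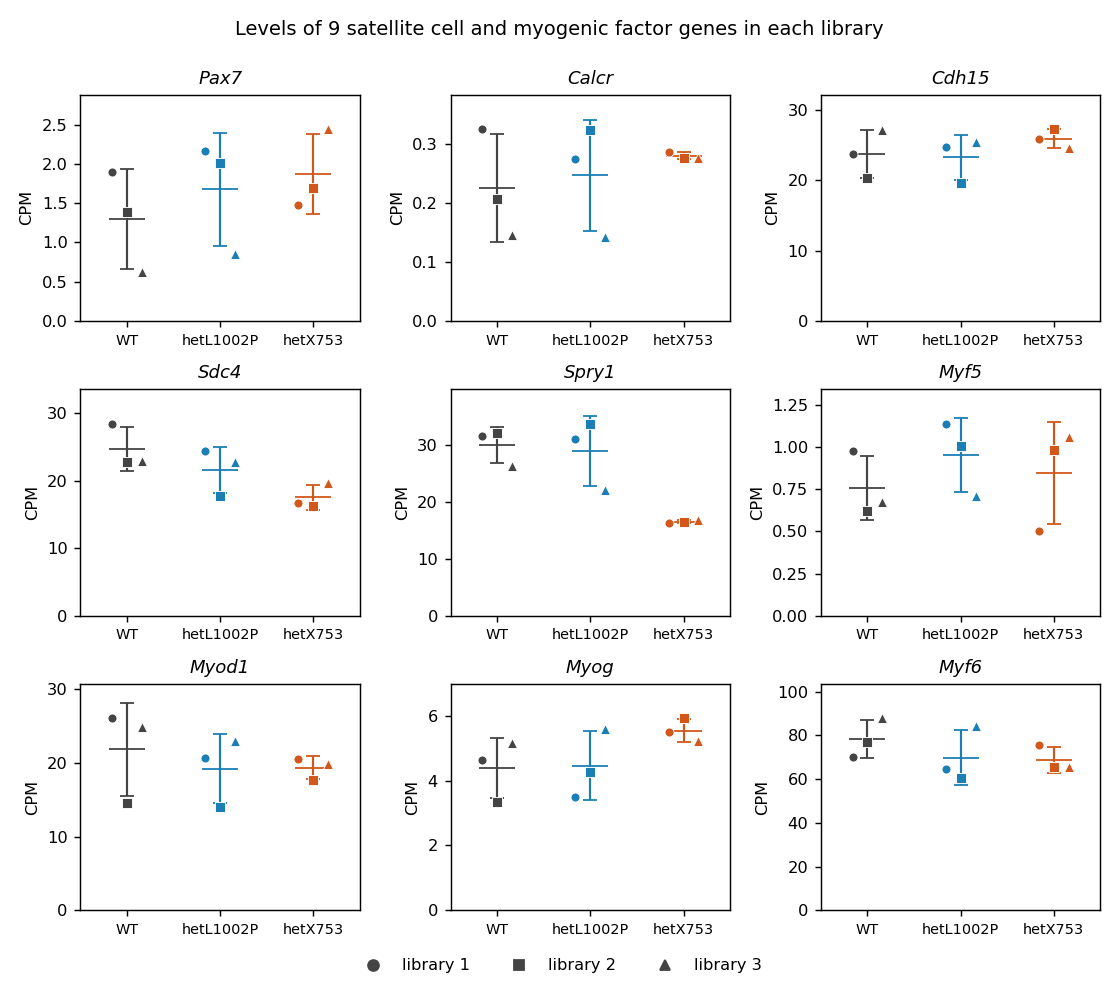
CPM (y axis, from 0) of each of the 9 genes in every library (points, shaped by library number) of the 3 genotypes (x axis), with the mean (horizontal line) and SD (bars, n = 3). The 3 hetX753 libraries sit at 16.3 to 16.7 CPM for Spry1, below all 6 others, while Pax7 spreads widely within WT and hetL1002P.

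Spry1 encodes Sprouty1, an intracellular antagonist of FGF and other receptor tyrosine kinase signals that satellite cells need to return to and hold quiescence. Its gene lies at chr3:37639947-37644598 on the plus strand, with the promoter shown above. Spry1 stood at 31.5, 32.0 and 26.3 CPM in the 3 WT libraries, at 30.9, 33.6 and 22.0 CPM in hetL1002P and at 16.3, 16.4 and 16.7 CPM in hetX753. The 3 hetX753 libraries were close to one another and below all 6 others, whereas WT and hetL1002P overlapped. In 3.65% of all genes tested the hetX753 libraries lay below the 6 others. Against WT, Spry1 was 1.82-fold lower in hetX753 (log2 fold change -0.86, SE 0.16, 95% interval -1.21 to -0.52, adjusted p = 0.0450 by edgeR's quasi-likelihood test), the 60th gene by p. It was the only member called of the 8 that could be tested. Over all genes 66 of 12989 were called in this comparison, or 0.508%, and 0.177% were called lower.

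The size of the Spry1 difference was steady and its call was not. Leaving out each library in turn kept the log2 fold change between -0.95 and -0.81 and kept the call without hetL1002P 2 (adjusted p = 0.0399) and without hetL1002P 3 (0.00635). The call was lost without WT 1 (0.107), WT 2 (0.163), WT 3 (0.0940), hetL1002P 1 (0.0808), hetX753 1 (0.121), hetX753 2 (0.154) or hetX753 3 (0.184) by the same edgeR test. Without both WT 3 and hetL1002P 3 the log2 fold change was -0.95, with an adjusted p of 0.00317. Scaling by library totals alone moved the median of all genes to 0.12 and gave Spry1 -0.75 with an adjusted p of 0.144. The library kit keeps no strand, and 710 exon bases of Spry1 are shared with Gm42922, a gene model on the opposite strand that has no row of its own here. Reads of the pair cannot be told apart over those bases.

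Ratios of counts within a library do not depend on scaling between libraries. Per count of Pax7, Spry1 had 16.6, 23.0 and 41.8 counts in the WT libraries. The hetL1002P libraries had 14.3, 16.7 and 25.8, and the hetX753 libraries 11.0, 9.65 and 6.83. Per count of Cdh15, the WT libraries had 1.32, 1.57 and 0.970 counts of Spry1, the hetL1002P libraries 1.25, 1.71 and 0.864, and the hetX753 libraries 0.631, 0.601 and 0.679. By either marker the hetX753 libraries were the lowest 3 of the 9. Both ratios reuse the Spry1 counts, and Pax7 and Cdh15 did not run together (Pearson r of log-CPM -0.36 across the 9 libraries). Neither ratio is therefore a measure per satellite cell. How many other genes give this order was not counted.

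Between the carriers, Spry1 also had no overlap, with a log2 fold change of -0.81 (SE 0.16) for hetX753 against hetL1002P. It did not pass the threshold (adjusted p = 0.0887, edgeR), and neither did any other member. In that comparison 0.115% of all genes were called, and in 6.98% hetX753 lay wholly below hetL1002P. Spry1 passed without hetL1002P 3 (-0.97, adjusted p = 0.0223) and without both WT 3 and hetL1002P 3 (-0.97, adjusted p = 0.00372). The test of any difference among the 3 genotypes gave Spry1 an adjusted p of 0.0773, and 0.216% of all genes passed it. Without hetL1002P 3 that adjusted p was 0.0109.

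Sdc4 encodes syndecan-4, a heparan sulfate proteoglycan that presents FGF to its receptors on satellite cells (chr2:164424247-164443887, minus strand). Its levels were 28.4, 22.8 and 22.9 CPM in WT, 24.3, 17.7 and 22.7 CPM in hetL1002P and 16.7, 16.2 and 19.6 CPM in hetX753. The hetX753 libraries lay below all WT libraries and overlapped hetL1002P. Such separation from WT, in either direction, was seen in 32.5% of all genes and downward in 15.8%. The fitted log2 fold change against WT was -0.50 (SE 0.15, 95% interval -0.84 to -0.16, adjusted p = 0.137 by edgeR) and it was not called. Without both WT 3 and hetL1002P 3 it was -0.55 with an adjusted p of 0.0883.

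Cdh15 encodes M-cadherin, which joins satellite cells to the fibre (chr8:122847966-122867397, plus strand). It had the smallest coefficient of variation of the members over the 9 libraries (11.1%), at 23.8, 20.3 and 27.1 CPM in WT, 24.7, 19.6 and 25.5 CPM in hetL1002P and 25.8, 27.3 and 24.6 CPM in hetX753. All 3 genotypes overlapped. The hetX753 to WT log2 fold change was 0.13, with a 95% interval of -0.18 to 0.43.

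Pax7, the transcription factor that defines satellite cells (chr4:139737062-139833528, minus strand), varied more within genotypes than between them. Its 3 WT libraries had 1.89, 1.39 and 0.628 CPM, the hetL1002P libraries 2.16, 2.01 and 0.854 CPM, and the hetX753 libraries 1.47, 1.70 and 2.45 CPM. The lowest values were those of WT 3 and hetL1002P 3, the libraries that stood apart on the first component. The hetX753 to WT log2 fold change was 0.48 (95% interval -0.46 to 1.42, adjusted p = 0.528, edgeR), and it was 0.15 without both of those libraries. Against hetL1002P the value was 0.13, and it was -0.17 without both.

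Calcr encodes the calcitonin receptor, which keeps quiescent satellite cells in their niche (chr6:3685680-3764714, minus strand). With 3 to 11 counts a library it did not pass the filter on low counts and has no test. Its level was 0.325, 0.206 and 0.145 CPM in WT, 0.275, 0.324 and 0.142 CPM in hetL1002P and 0.287, 0.276 and 0.277 CPM in hetX753, so the genotypes overlapped. With no filter, edgeR gave a log2 fold change of 0.24 (SE 0.53, adjusted p = 0.851) for hetX753 against WT.

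Among the myogenic bHLH factors no member was called in any comparison. Myf5, which commits cells to the muscle fate, had 0.976, 0.619 and 0.677 CPM in WT, 1.14, 1.01 and 0.712 CPM in hetL1002P and 0.503, 0.987 and 1.06 CPM in hetX753 (chr10:107482908-107486134, minus strand). The genotypes overlapped, and the hetX753 to WT interval ran from -0.68 to 0.92 on the log2 scale. Myod1, the other commitment factor (chr7:46376474-46379099, plus strand), had 26.0, 14.6 and 24.9 CPM in WT, 20.7, 14 and 22.9 CPM in hetL1002P and 20.6, 17.6 and 19.8 CPM in hetX753. Library 2 was the lowest of each genotype, and the hetX753 to WT log2 fold change was -0.18 (95% interval -0.68 to 0.33).

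Myog encodes myogenin, which drives differentiation and also answers to loss of nerve supply (chr1:134289989-134292548, plus strand). It stood at 4.65, 3.36 and 5.17 CPM in WT, 3.50, 4.28 and 5.60 CPM in hetL1002P and 5.50, 5.92 and 5.22 CPM in hetX753. The hetX753 libraries lay just above all WT libraries, as they did in 16.7% of all genes, and overlapped hetL1002P. The hetX753 to WT log2 fold change was 0.33 (SE 0.22, adjusted p = 0.379, edgeR). Myf6, or Mrf4, the bHLH factor of mature fibres (chr10:107492853-107494737, minus strand), lies beside Myf5 on chromosome 10. Its levels were 70.3, 77.2 and 87.8 CPM in WT, 64.7, 60.6 and 84.4 CPM in hetL1002P and 75.4, 65.4 and 65.5 CPM in hetX753. WT 3 and hetL1002P 3, the lowest libraries of their genotypes for Pax7, were here the highest of theirs. The hetX753 to WT log2 fold change was -0.19 (95% interval -0.51 to 0.13).

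For hetL1002P against WT none of the 8 tested members passed, and over all genes 0% did (0 of 12989 by edgeR, 1034 at an unadjusted p under 0.05, and 5 by DESeq2). The members' log2 fold changes ran from -0.20 for Sdc4 to 0.34 for Pax7, with Spry1 at -0.05 (95% interval -0.39 to 0.29). No member had its hetL1002P libraries wholly above or below WT, against 9.44% of all genes. With the library number as a block in a fit of these 2 genotypes alone, 635 genes and 0 members were called, and with the block over all 9 libraries 0 genes were.

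**Figure D2:**
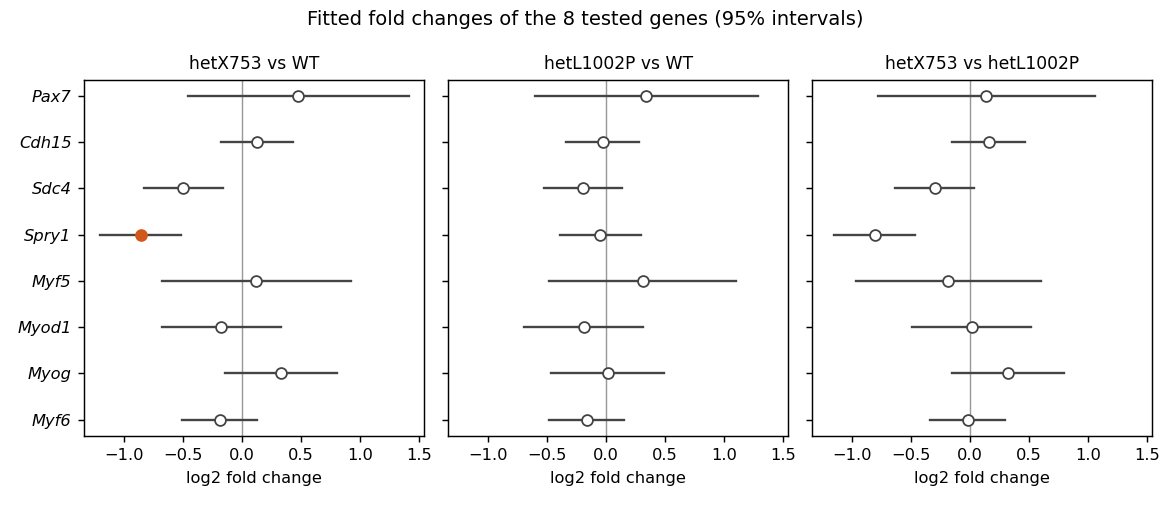
Fitted log2 fold change (x axis) of each tested member (y axis) in the 3 comparisons, one per panel, with 95% intervals as lines. The filled point is the gene called at an adjusted p under 0.05, Spry1 in hetX753 against WT at -0.86; its interval against hetL1002P also lies below 0 while its adjusted p there is 0.0887.

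Against WT, 4 of the 8 tested members had fitted hetX753 values above 0 and 4 had values under it; their median was -0.03 on the log2 scale, beside 0.003 over all genes. For hetL1002P the median was -0.04 beside 0.01, and between the carriers it was -0.005 beside -0.01. With length and GC trends removed the split was 6 above and 2 below in hetX753 against WT (median 0.13 beside -0.03) and 7 above and 1 below in hetL1002P against WT (median 0.05 beside -0.01). The plot of deviations sets each library against the gene's mean over all 9 libraries, so differences between genotypes remain in it. Across the 9 libraries, log-CPM of Pax7 and Myf6 ran against each other (Pearson r = -0.92, and -0.76 over the 7 libraries without WT 3 and hetL1002P 3). Pax7 and Myf5 ran together (0.62, and 0.85 over the 7), Myod1 and Cdh15 likewise (0.71 and 0.63), and Myog ran against Spry1 (-0.78 and -0.84). For Pax7 and Spry1 r was -0.01, and 0.03 over the 7. With each genotype's mean taken off first, r for Pax7 and Spry1 was 0.86 over all 9 libraries. By that measure Myf6 and Spry1 had -0.91 (-0.05 before), and Spry1 and Sdc4 had -0.20 (0.63 before). Pax7 and Myf6 stayed at -0.91. WT 3 and hetL1002P 3 were the lowest of their genotypes for Pax7 and Spry1 and the highest for Myf6. The r with genotype means taken off was not computed without them, so its dependence on them is not shown. All r values here are descriptions, chosen from 28 pairs of tested members over 9 libraries of 3 genotypes. In them the values of a library share its depth and scaling.

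**Figure D3:**
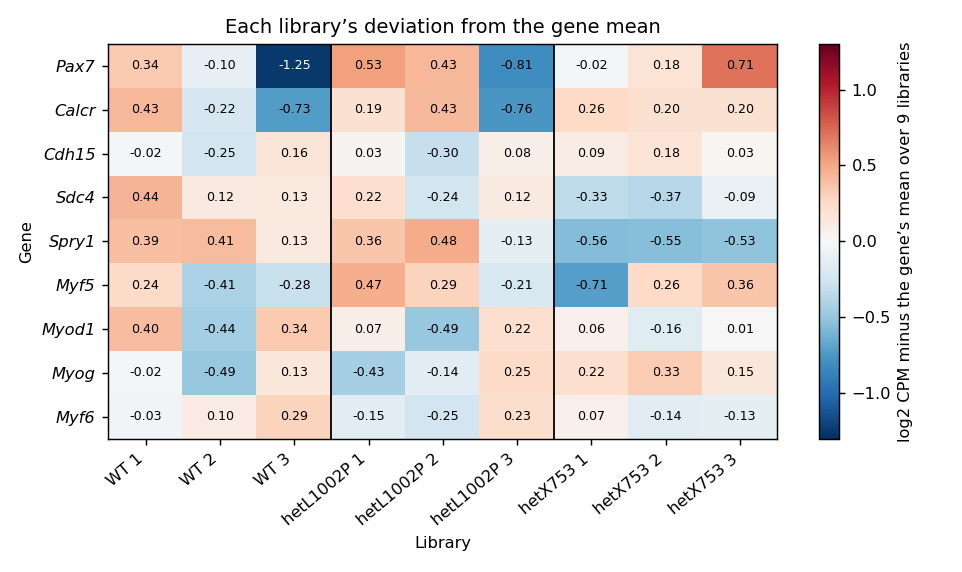
Each library's log2 CPM minus the gene's mean over the 9 libraries (colour and printed value), genes in rows and libraries in columns, with lines between genotypes. WT 3 and hetL1002P 3 hold the lowest Pax7 values (-1.25 and -0.81), and the Spry1 row is negative in all 3 hetX753 libraries (-0.56 to -0.53).

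The genes whose log-CPM followed each tested member most closely over the 9 libraries, among 10773 or 10774 genes averaging at least 1 CPM, were ranked by Pearson r. These are the highest of very many r values over 9 libraries and serve as description only. They include differences between genotypes. For Spry1 the closest genes were Klhl42 (0.973), Mmp14 (0.972) and Marcks (0.961). With each genotype's mean taken off first their r was 0.862, 0.922 and 0.782. For Pax7 they were Itga6 (0.982), Arcn1 and Lats2, for Myf6 Calr (0.987), Cisd1 and Hdgf, and for Myf5 Hn1l (0.902), Zcchc4 and Znrf3. For Myod1 the closest was Clpx (0.917), for Myog Xpc (0.949), for Sdc4 Dnajb5 (0.932) and for Cdh15 Mlycd (0.945).

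The pathways around the members gave no called gene. Beside the members, 14 lists of 187 gene symbols were described, of which 184 were in the table (Mymk and Mymx, not found by those names, are there under their older symbols Tmem8c and Gm7325), 166 were tested and 0 were called in any comparison by edgeR. At an unadjusted p under 0.05 there were 30 of these genes in hetX753 against WT (18.1%, beside 20.9% of all genes tested), 22 in hetL1002P against WT (13.3%, beside 7.96%) and 18 between the carriers (10.8%, beside 8.24%). Of the 166, DESeq2 called 5 in hetX753 against WT (Acta1, Fgf1, Jag2, Pcolce and Pi16), 0 in hetL1002P against WT and 1 between the carriers, Mef2b. Over all 12989 genes DESeq2 called 660, 5 and 138 in the same order. Of 20 tested genes of the FGF receptor and Sprouty pathway, on which Spry1 and Sdc4 act, 14 lay above 0 and 6 below in hetX753 against WT (median 0.23), and 13 of 21 lay above without both WT 3 and hetL1002P 3 (median 0.08). Fgf1, an FGF ligand, averaged 14 ± 1.4 CPM for WT, 19.3 ± 1.96 for hetL1002P and 23.5 ± 4.0 for hetX753 (SD, n = 3), and its log2 fold change for hetX753 was 0.75 (adjusted p = 0.0689, edgeR). Grb2, the adaptor below the receptors, had -0.27. Other Sproutys gave other values: Spry2 stood at -0.02 (SE 0.15) and Spry4 at 0.09 (SE 0.29), neither tested against Spry1.

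Notch signalling also holds satellite cells at rest. Of its 15 genes, 12 lay above 0 in hetX753 against WT (median 0.16), but 6 did without both WT 3 and hetL1002P 3 (median -0.07). The ligand Jag2 had a log2 fold change of 0.55, the target Hes1 -0.51 and Hes6 -0.48, none called (adjusted p = 0.133, 0.180 and 0.232, edgeR). Of 20 bHLH partners and inhibitors, with the E proteins, Id and Mef2 families, 13 lay above 0 (median 0.16), and 10 did once length and GC trends were removed. Mef2b, on at most 17 counts a library, differed most between the carriers, at 2.65 on the log2 scale (adjusted p = 0.104, edgeR). Of 8 tested genes of fusion and newly formed fibres 4 lay above 0 (median 0.01), and 6 did without both libraries (median 0.17), with the cell cycle inhibitor Cdkn1c at 0.48 (adjusted p = 0.159, edgeR). Of 12 tested genes of the denervation response in which Myog acts, 7 lay above 0 (median 0.06) and 5 without both libraries (median -0.06). Musk, the receptor kinase of the neuromuscular junction, averaged 8.21 ± 2.26 CPM for WT, 16.3 ± 3.70 for hetL1002P and 12.4 ± 1.75 for hetX753 (SD, n = 3). Its log2 fold change against WT was 0.99 for hetL1002P and 0.59 for hetX753, neither called (adjusted p = 0.579 and 0.197, edgeR). Chrna1 of the same list went the other way in hetX753, at -0.43 (adjusted p = 0.239, edgeR).

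Of 14 other satellite cell markers tested, 5 lay above 0 and 9 below in hetX753 against WT (median -0.03). The split turned to 8 above and 6 below without both WT 3 and hetL1002P 3. With library totals alone it was 10 above and 4 below. Des is also in the myofibre list, and Notch3 is also in the smooth muscle and pericyte list. The split therefore does not describe satellite cells alone. Cxcr4, a chemokine receptor, had a log2 fold change of -0.76 (SE 0.29, adjusted p = 0.192, edgeR). In the other direction Tenm4, on at most 31 counts a library, had 0.99 (SE 0.64, adjusted p = 0.380, edgeR). Ncam1 had 0.12 (SE 0.17, adjusted p = 0.698, edgeR). Vcam1 stood at -0.11 and Cd34 at -0.04, beside Itga7 at 0.24, so these markers, like Pax7 and Cdh15, gave no called difference.

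Spry1 and Sdc4 are also transcribed outside satellite cells, so markers of other cell types are given beside them. All 12 fibroblast and fibro-adipogenic markers had hetX753 values below WT (median -0.43), and 11 did with library totals alone. Their summed level was 2002 to 2635 CPM in WT, 1404 to 2851 in hetL1002P and 1674 to 1920 in hetX753. Pcolce had the smallest p of that list (log2 fold change -0.57, adjusted p = 0.0689, edgeR). Of 10 tested macrophage markers 9 lay below 0 (median -0.31), with sums of 82.5 to 140 CPM in WT, 77.8 to 154 in hetL1002P and 89.2 to 94.6 in hetX753. All 10 smooth muscle and pericyte markers lay above 0 (median 0.30, and 8 of 10 without both WT 3 and hetL1002P 3), with sums of 267 to 388, 332 to 497 and 419 to 551 CPM. Endothelial markers summed to 317 to 383, 283 to 369 and 353 to 369 CPM, and 8 of 12 lay above 0, or 5 of 12 without both WT 3 and hetL1002P 3. Of 10 Schwann cell markers 6 lay above 0, or 4 without both. Of the 12 myofibre markers 9 lay below 0 (median -0.19), and 6 with library totals alone. No marker of these lists that was in the counts table was at 0 in all libraries. The macrophage marker Adgre1 was not found there by that name. The part of any of these cell types in the Spry1 difference was not tested.

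**Figure D4:**
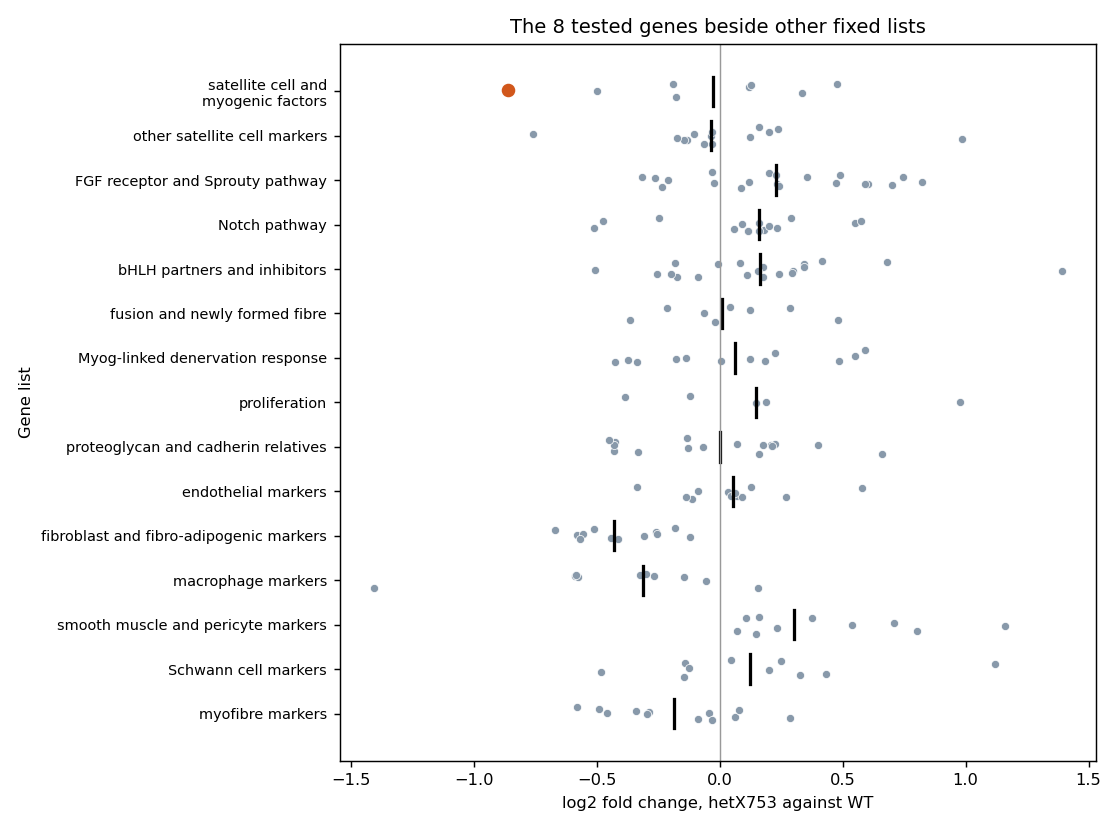
Fitted log2 fold change of hetX753 against WT (x axis) of each tested gene (points, spread at random in height) in the member list and the 14 other lists (y axis), with each list's median as a black bar. The 1 large filled point is Spry1, the only gene called among those drawn, and the fibroblast list lies wholly below 0.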

How the data were processed

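Libraries of 9 gastrocnemius samples came, per the labels, from the second version of the TruSeq RNA kit, whose protocol keeps no strand. The authors deposited raw counts, whole numbers for each gene symbol, without normalization. Per the submitters' processing notes the tools were Bowtie2 2.2.6, TopHat2 2.0.14, Subread and featureCounts 1.4.6, and the build mm10; their roles, the annotation and any strand setting: not given in the sources used here. Totals per library ran from 19768149 to 33977252. Genotypes come from the sample labels. The members and the gene lists were chosen with earlier results of these data known.

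Counts were fitted with edgeR 4.0.16 in R 4.3.3 (filterByExpr, trimmed mean of M-values, glmQLFit with robust estimation, glmQLFTest) over all 9 libraries with genotype alone, keeping 12989 of 24062 genes, with Benjamini-Hochberg adjustment over all of them. The SE is the log2 fold change over the root of F. The fit was also run on simulated counts with these library sizes and these genes' means and spreads. Those counts were drawn independently for each gene and library. They therefore lacked the differences shared by many genes that set WT 3 and hetL1002P 3 apart, and do not test the fit under them. Log-CPM for correlations used a prior count of 2. Lengths and coordinates are GENCODE M21 (GRCm38), matched by symbol for 94.37% of rows, and promoters are RefSeq's GRCm38.p6. All members are named. From each other list the rule names any called gene and up to 3 with the smallest joint p; per member, the 3 closest genes by Pearson r. Other list genes (Spry2, Spry4, Vcam1, Cd34, Itga7) were named after their values were seen.

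Replicates of a genotype all differed by more than sampling noise (chi-square over degrees of freedom 14.9 to 68.6). Library numbers come from the titles. Deviations of same-numbered WT and hetL1002P libraries correlated at 0.271, 0.364 and 0.514, all past the pairing bound of 0.1. Same-numbered pairs with hetX753 ran from -0.288 to 0.165 and did not all pass it. Some differently numbered pairs passed it too, such as hetL1002P 2 with WT 1 (0.178) and hetX753 1 with hetL1002P 3 (0.286). Others were as low as -0.448 (hetL1002P 2 with WT 3). The bound alone therefore does not mark pairs. Between WT and hetL1002P, though, all same-numbered values lay above all differently numbered ones, of which 0.178 was the highest. Whether those libraries are paired is not said in the labels. Alternatives were DESeq2 1.42.0, limma-voom (limma 3.58.1; with robust estimation, chosen after seeing the data), other scalings and filters, fewer libraries, a library-number block and removal of length and GC trends.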

Additional observations from a re-analysis of the deposited data

How the results depend on the processing

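Depth limits Pax7, Myf5 and Calcr most, with at most 64 counts a library, and 3 libraries a genotype limit all calls. The cause of each change below was not tested.

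Spry1 in hetX753 against WT stayed below 0 under all 23 alternatives (-0.95 to -0.75) and was called under 10, so 1 or 0 members were. The count was 0 with limma-voom (adjusted p = 0.0567), robust limma-voom (0.0571), library totals alone (0.144), at least 1 CPM in 3 libraries (0.0515), length and GC trends removed (0.0693, and 0.0522 with the replicate block), and 0 to 1 leaving out each library. It was called by DESeq2 (9.6e-05) and with the block over all 9 libraries (0.0357) or in 2 genotypes (0.0358). Between the carriers and jointly, 1 member, Spry1, was called by DESeq2 and without both WT 3 and hetL1002P 3, jointly also with no low-count filter, and 0 to 1 leaving out each library.

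Genes called in hetX753 against WT numbered 66, and 660 by DESeq2, 31 when scaled by totals alone, 254 in the 2 genotypes alone, 106 with the block there, 111 with block and length and GC trends removed, 340 without both libraries, and 0 to 669 leaving out each library (WT 1, 0; WT 2, 9; WT 3, 7; hetL1002P 1, 13; hetL1002P 3, 669; hetX753 1 to 3, 34, 17 and 3). In hetL1002P against WT they numbered 0, and 5 by DESeq2, 2 by limma-voom, robust or not, without the low-count filter or without both libraries, 635 with the block in 2 genotypes, 1 with length and GC trends removed, with or without the block, and 0 to 1 leaving out each library. Between the carriers they numbered 15, and 138 by DESeq2, 38 with no low-count filter, 5 in the 2 genotypes alone, 2 with the block there, 31 with it over all 9 libraries, 36 with length and GC trends removed, 42 with the block added, 95 without both libraries and 0 to 19 leaving out each library (hetL1002P 1, 0; hetL1002P 2, 2; hetX753 1, 7; hetX753 3, 3). Jointly they numbered 28, and 384 by DESeq2, 16 when scaled by totals alone, 58 with every gene kept, 45 with length and GC trends removed, 68 with the block added, 194 without both libraries and 0 to 209 leaving out each library (hetL1002P 1, 0; WT 1, 3; hetX753 3, 6; WT 2, WT 3 or hetX753 2, 11; hetL1002P 3, 209).

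Small uncalled values changed sign. With length and GC trends removed, without and with the block, Myod1 was 0.041 and 0.083 and Myf6 0.053 and 0.051 in hetX753 against WT; in hetL1002P against WT Myod1 was 0.0013 and 0.029, Myf6 0.025 and 0.024, Spry1 0.0595 and 0.048 and Cdh15 0.046 and 0.052; between the carriers Myf6 was 0.028 and 0.027. With library totals alone Spry1 was 0.049 and Cdh15 0.059 in hetL1002P against WT, and Myf6 0.020 between the carriers. Without both libraries Spry1 was 0.028, Cdh15 0.0050 and Myog -0.053 in hetL1002P against WT, and Pax7 -0.17 and Myf6 0.13 between the carriers. Myog in hetL1002P against WT was -0.00053 by DESeq2, -0.011 by limma-voom, robust or not, and -0.0026 with the replicate block in 2 genotypes. Leaving out each library gave Myf5 -0.066 to 0.40 in hetX753 against WT; Myog -0.18 to 0.15, Spry1 -0.18 to 0.11 and Cdh15 -0.13 to 0.074 in hetL1002P against WT; and Pax7 -0.17 to 0.36, Myf5 -0.37 to 0.10, Myod1 -0.17 to 0.16 and Myf6 -0.11 to 0.14 between the carriers. The replicate block changed no other call of a member.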

Other observations

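Relatives of the surface members were measured beside them. Of 16 tested syndecans, glypicans, cadherins and calcitonin receptor partners, 8 lay above 0 and 8 below in hetX753 against WT (median 0.0009), and 0 were called by edgeR (2 at an unadjusted p under 0.05). Cdh13, a cadherin anchored to the membrane by lipid, averaged 39.3 ± 6.75 CPM in WT, 51.7 ± 8.30 in hetL1002P and 51.8 ± 4.74 in hetX753 (SD, n = 3). Its log2 fold change was 0.40 in either carrier against WT (adjusted p = 0.200 for hetX753 and 0.579 for hetL1002P, edgeR), and these comparisons share the WT libraries. Gpc4, a glypican, averaged 15.2 ± 3.77, 16 ± 4.48 and 11.4 ± 0.556 CPM in the same order. Of 15 proliferation genes only 5 passed the filter on low counts. Among them Rrm2, a subunit of ribonucleotide reductase, had at most 26 counts a library and a log2 fold change of 0.98 in hetX753 against WT (SE 0.33, adjusted p = 0.161, edgeR), and Mcm2, a replication licensing factor, had -0.39 (adjusted p = 0.239, edgeR).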
